A study of Bos taurus with 10 samples.

Results

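Cytosolic ribosomal proteins are the protein components of the ribosomes that translate nuclear transcripts. Genes were taken as members when their only symbol in the platform annotation began with RPL or RPS and a digit, or was RPLP0, RPLP1, RPLP2 or RPSA. The ribosomal S6 kinases were left out. The rule found 69 of 9155 named genes, read by 98 of 24016 probe sets, and each gene was represented by its probe set of highest mean over the 10 arrays. Of the 69, 62 were core ribosomal proteins, 39 of the large (60S) and 23 of the small (40S) subunit. The others were 5 paralogues (RPL3L, RPL7L1, RPL26L1, RPS4Y1 and RPS27L), RPL15P, which RefSeq lists as a pseudogene, and RPS19BP1, a protein that binds RPS19.

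The samples were liver biopsies of female Holstein cows, primiparous and multiparous, in week 5 of lactation. From week 3 before calving, 20 cows were given conjugated linoleic acid (CLA, isomers of linoleic acid whose double bonds are conjugated) as a fat protected from the rumen, and 20 a control fat protected in the same way. Both groups ate the same mixed ration and concentrate. The fat made up 27.3% of a supplemental concentrate of 630 g of dry matter daily. Each of 5 CLA and 5 control arrays was hybridized with the combined RNA of 4 cows, so a single cow cannot be seen. Errors and intervals of differences below come from limma, which draws each probe set's spread between pools towards a value typical of all probe sets. SDs are the plain spread between pools. The values are log2 signals made by the authors with RMA, and differences are CLA minus control. The comparison asks whether transcripts for the protein synthesis machinery differ with CLA feeding in early lactation.

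The ribosome joins a small subunit, which reads the messenger RNA, to a large subunit, which forms the peptide bond. Most ribosomal proteins are made in matched amounts, and their mRNAs share a start of pyrimidines through which the mTOR pathway controls their translation more than their abundance. In liver, ribosomes supply the secreted plasma proteins as well as the enzymes of the cell.

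Array medians lay between 5.79 and 5.85, and did not overlap between the groups (at most 5.82 in CLA pools, at least 5.83 in control pools). Hepatocyte markers carried the signal of liver: 8 of 11 had control means above 12, led by albumin (ALB) at 14.9, and TAT had the lowest at 7.24. CLA pool 2 and control pool 4 were the arrays least correlated with the rest, and CLA pool 2 had the widest spread of values (SD 2.43, against 2.34 to 2.41 in the others).

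Ribosomal protein transcripts differed little between the groups. None of the 69 passed limma's test with Benjamini-Hochberg adjustment over all probe sets (lowest adjusted p = 0.574), and none of all 24016 probe sets did. At an unadjusted p under 0.05 limma counted 0 of the 69, beside 8.49% of the 9155 genes, and the unmoderated test counted 3, RPL27A and RPL7L1 higher and RPS3 lower, beside 9.23% of all genes. In 0 members did the CLA pools lie wholly outside the control pools, beside 2.17% of all genes. Differences ran from -0.12 (RPL28, 0.920-fold) to 0.15 (RPL7L1, 1.11-fold). Over the members the median was 0.008, against -0.01 over all genes, and 37 were higher and 32 lower. In biopsies of mixed cells, fewer cells of a type and less RNA per cell cannot be told apart.

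The sign of this median turned with the scaling and with single pools. After quantile normalization the median was -0.02 (26 higher, 43 lower), after cyclic loess normalization -0.03 (18 higher, 51 lower) and after subtraction of array medians 0.04 (55 higher, 14 lower). Leaving out control pool 1 gave -0.01, and leaving out CLA pool 2 gave -0.03.

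A missed threshold does not show equal levels, so the intervals are given. The 95% interval of the difference lay wholly within 1.2-fold for 57 of 69 members (82.6%), against 39.4% of all genes, and within 1.5-fold for 69 of 69, against 95.0%. Over the 62 core members no interval reached below -0.32 (RPL28) or above 0.35 (RPS21). The 12 members whose interval passed 1.2-fold were RPL10, RPL24, RPL28, RPL36A, RPL37, RPL39, RPS7, RPS19, RPS21 and the paralogues RPL26L1, RPL3L and RPL7L1. The spread between pools of one group had a median SD of 0.093 over the core and 0.145 over all genes. Among 116 other genes with signals at or above the core median it was 0.095, and 75.9% of those genes lay within 1.2-fold and 98.3% within 1.5-fold.

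**Figure D1:**
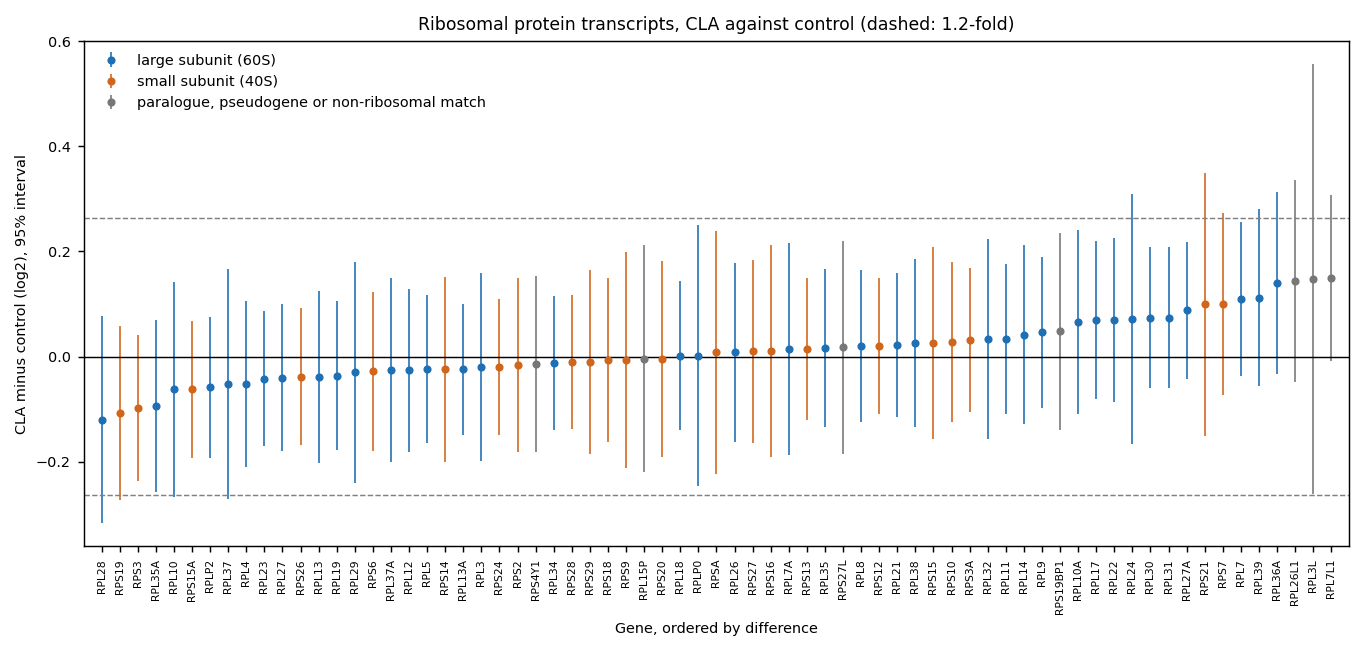
The plot gives the difference between CLA and control pools on the log2 scale for each of 69 genes, ordered by difference, with its 95% interval from limma (5 pools per group). Every interval holds 0, and 57 of 69 lie between the dashed lines that mark 1.2-fold.

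Signals of the core were among the strongest of the array: 52 of 62 had a mean above 12, where the highest value of any probe set was 14.98. RPL37 and RPS19 had by far the weakest signals of the core, at means of 3.30 and 5.06, and RPS28 was next at 10.365. Whether the RPL37 and RPS19 sets read their named genes was not tested. Signals of different probe sets are not levels that can be ranked, and how far strong signals understate a fold change was not tested.

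Among large subunit proteins the median difference was 0.008 (22 of 39 higher), and 33 of 39 lay within 1.2-fold. RPL28 had the lowest difference of all members. Its control pools stood at 12.41, 12.50, 12.50, 12.65 and 12.60 and its CLA pools at 12.31, 12.72, 12.36, 12.38 and 12.29. All CLA pools but pool 2 were below every control pool. The difference was -0.12 ± 0.0905 SE (limma adjusted p = 0.742), and without CLA pool 2 it was -0.20 (limma adjusted p = 0.494, unadjusted p under 0.05).

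RPL35A, whose human gene is mutated in some cases of Diamond-Blackfan anaemia, read 12.55, 12.50, 12.50, 12.57 and 12.82 in control pools and 12.48, 12.54, 12.41, 12.53 and 12.51 in CLA pools. The groups overlapped, and control pool 5 stood above the rest. The difference was -0.09 ± 0.0751 SE, and -0.04 without control pool 5. RPL10, which reaches towards the peptidyl transferase centre, ranged from 13.08 to 13.36 in control pools (median 13.21) and from 12.97 to 13.44 in CLA pools (median 13.10), with a difference of -0.06 ± 0.0941 SE (-0.13 without CLA pool 2, -0.01 without CLA pool 5).

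RPL36A had the highest difference of the core, 0.14 ± 0.0793 SE (limma adjusted p = 0.641). Control pools read 11.37, 11.50, 11.61, 11.27 and 11.61, and CLA pools 11.63, 11.63, 11.66, 11.62 and 11.52. Of the CLA pools, pool 5 alone fell within the control range, and without control pool 4 the difference was 0.09. RPL39, a small protein of the tunnel through which the new peptide leaves, read 13.24, 13.04, 13.22, 13.03 and 13.20 in control and 13.16, 13.45, 13.22, 13.20 and 13.26 in CLA pools. The groups overlapped widely, with a difference of 0.11 ± 0.0775 SE. It was 0.06 without CLA pool 2, 0.06 with array weights and 0.07 after cyclic loess normalization.

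RPL7, a large subunit protein that binds rRNA, read 12.81, 13.00, 12.97, 12.94 and 13.07 in control pools and 13.11, 12.98, 13.10, 13.05 and 13.10 in CLA pools. CLA pools 1, 3 and 5 exceeded every control pool, while CLA pool 2 was the lowest of its group. The difference was 0.11 ± 0.0674 SE (limma adjusted p = 0.675), and 0.07 without control pool 1. The other RPL7 probe set, of weaker signal (mean 5.581), differed by -0.082 ± 0.0902 SE. Tunnel wall proteins other than RPL39 differed by 0.07 (RPL17) and -0.05 (RPL4), and RPL22, elsewhere in the large subunit, by 0.07.

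RPL5 and RPL11 join 5S rRNA in a particle that also binds MDM2, the ubiquitin ligase of p53. RPL5 read 12.53 to 12.73 in control and 12.56 to 12.68 in CLA pools (difference -0.02 ± 0.0648 SE), and RPL11 read 12.58 to 12.74 and 12.65 to 12.81 (0.03 ± 0.0655 SE). In both genes the ranges overlapped. Under cyclic loess normalization the sign for RPL11 turned (-0.0083), and after subtraction of array medians that for RPL5 did (0.0070).

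RPLP0 and RPLP2 form part of the stalk that recruits elongation factors. RPLP0, often used as a reference gene, read 12.02, 12.41, 12.14, 12.10 and 12.11 in control pools and 12.08, 12.56, 12.10, 12.10 and 11.95 in CLA pools. Its group means were 12.156 and 12.158, and its difference was 0.00 ± 0.114 SE, the second widest SE of the core. Without CLA pool 2 the difference was -0.10. RPLP2 ranged from 13.00 to 13.10 in control and from 12.93 to 13.09 in CLA pools (-0.06 ± 0.0615 SE).

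Among small subunit proteins the median was -0.006 (10 of 23 higher), and 20 of 23 lay within 1.2-fold. RPS3, which lines the entry of the mRNA channel, read 12.73, 12.89, 12.74, 12.78 and 12.83 in control and 12.62, 12.79, 12.70, 12.72 and 12.65 in CLA pools. All CLA pools but pool 2 were below every control pool. The difference was -0.10 ± 0.0640 SE (limma adjusted p = 0.697), and it was -0.14 after cyclic loess normalization (limma adjusted p = 0.596, unadjusted p under 0.05).

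RPS15A showed the same arrangement on a smaller scale, with control pools at 12.97, 13.01, 12.94, 12.99 and 13.09 and CLA pools at 12.92, 13.01, 12.91, 12.92 and 12.93. CLA pool 2 stood apart from its group. The difference was -0.06 ± 0.0598 SE. RPS19, the gene most often mutated in Diamond-Blackfan anaemia, read 4.97 to 5.32 in control and 4.94 to 5.09 in CLA pools (-0.11 ± 0.0760 SE, and -0.06 without control pool 1) at the weak signal given above.

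RPS6, the substrate of the S6 kinases, read 12.90 to 13.09 in control and 12.89 to 13.12 in CLA pools, a difference of -0.03 ± 0.0691 SE. RPSA, also known as a laminin receptor, read 12.00 to 12.19 in control and 11.83 to 12.49 in CLA pools. Its CLA pools were spread more widely (SD 0.242 against 0.071), with pool 2 highest and pool 5 lowest, around a difference of 0.01 ± 0.106 SE. Without CLA pool 2 that difference was -0.09.

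Grouped by place in the ribosome, the mRNA entry (RPS2, RPS3 and RPS9) and mRNA exit (RPS14, RPS26 and RPS28) had differences of -0.10 to -0.0060, all 6 below 0. After subtraction of array medians 2 of these 6 were below 0, RPS3 and RPS26, and without CLA pool 5 there were 3. Among tunnel exit proteins RPL31 was at 0.07, RPL35 at 0.016, RPL26 at 0.008 and RPL19 at -0.04. With RPL24 and RPL29 of the large subunit added, 4 of 6 were higher (median 0.012). That count was 2 of 6 after cyclic loess normalization and 1 of 6 without CLA pool 2 (median -0.04). A partial list held 8 of the members mutated in Diamond-Blackfan anaemia: RPL5, RPL11, RPL35A, RPS7, RPS10, RPS19, RPS24 and RPS26. Of these 3 were higher and 5 lower (median -0.022), and 5 were higher and 3 lower after subtraction of array medians. Other members mutated in it were not listed. In each of these groups 0 members had an unadjusted p under 0.05, beside 8.49% of all genes. Groups this small cannot show a departure from that share.

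**Figure D2:**
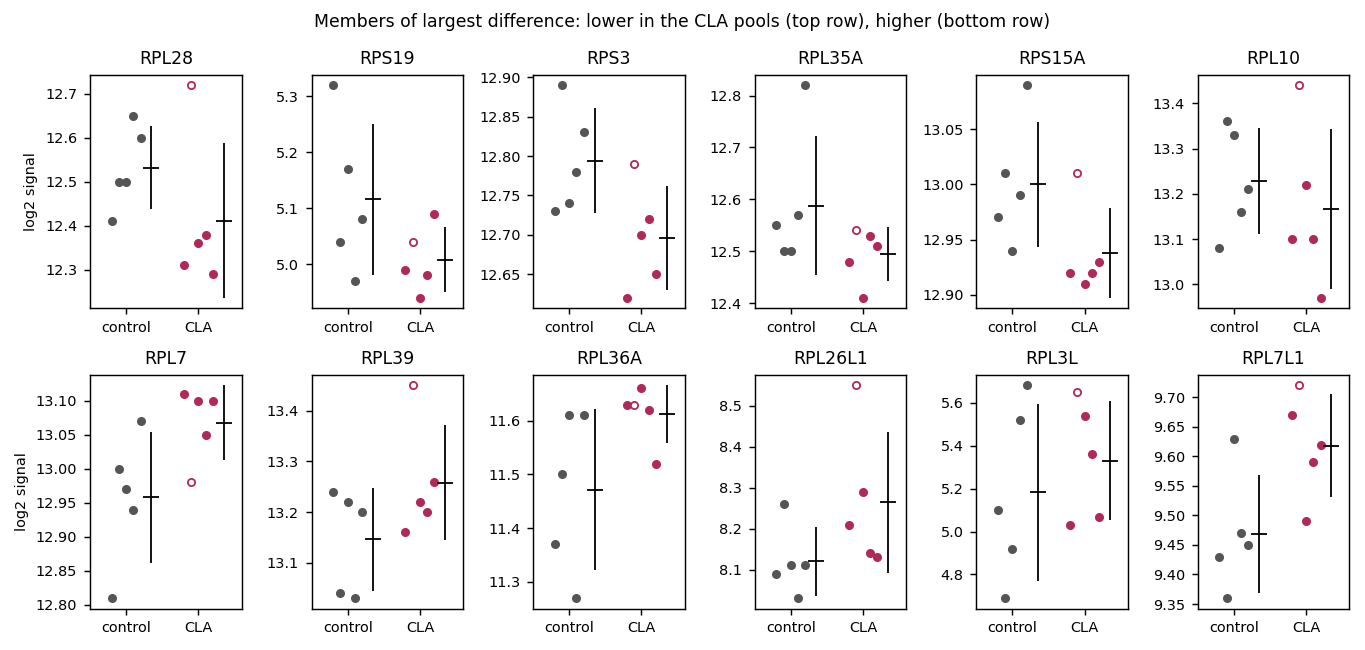
Log2 signal of the 6 members of lowest and the 6 of highest difference, by pool (points; open circle, CLA pool 2), with mean ± SD of 5 pools beside them; axes differ between panels and do not start at 0. CLA pool 2 is the highest CLA pool in 9 of the 12 panels, and in RPL28, RPS3 and RPS15A it is the 1 CLA pool not below every control pool.

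Of the 5 paralogues 4 were higher and 1 lower (median 0.144), and 3 were higher without CLA pool 2, without control pool 1, and after quantile or cyclic loess normalization. The median of these 5 rested on single pools, and leaving out 1 of them gave 0.025 (control pool 2), 0.068 (CLA pool 2), 0.0825 (control pool 3) or 0.0955 (CLA pool 3). RPL7L1, which acts in assembly of the large subunit, read 9.43, 9.36, 9.63, 9.47 and 9.45 in control pools and 9.67, 9.72, 9.49, 9.59 and 9.62 in CLA pools. Control pool 3 alone lay among the CLA pools. The difference was 0.15 ± 0.0724 SE (limma adjusted p = 0.574), the smallest p of the members. Its other probe sets, of weaker signal (means 5.835 and 5.655), differed by 0.16 ± 0.118 SE and 0.08 ± 0.0889 SE. The unadjusted p of its strongest set fell under 0.05 without control pool 3 (difference 0.19) and without CLA pool 3 (0.18).

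RPL26L1, a near copy of RPL26, read 8.09, 8.26, 8.11, 8.03 and 8.11 in control and 8.21, 8.55, 8.29, 8.14 and 8.13 in CLA pools. Control pool 2 was the pool that kept the groups from separating. The difference was 0.14 ± 0.0883 SE, against 0.01 ± 0.0778 SE for RPL26 itself, and without CLA pool 2 it was 0.07. RPL3L, the striated muscle form of RPL3, read 4.69 to 5.68 in control and 5.03 to 5.65 in CLA pools and differed by 0.15 ± 0.188 SE, the widest error of the members. Without single pools it ran from 0.025 (control pool 2) to 0.27 (control pool 5).

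RPS27L, a p53 target related to RPS27, differed by 0.02 ± 0.0931 SE (10.83 to 11.21 in control, 10.86 to 11.25 in CLA pools), and by -0.04 after quantile and -0.02 after cyclic loess normalization. RPS4Y1, whose symbol names a Y-linked copy of RPS4, differed by -0.01 ± 0.0772 SE (12.07 to 12.37, 12.11 to 12.28). All cows were female, so this signal cannot come from a Y-linked gene. RPS4Y1 was counted as a paralogue by its symbol alone. RPL15P differed by -0.0040 ± 0.0993 SE (11.70 to 12.15, 11.88 to 12.22) and RPS19BP1 by 0.05 ± 0.0859 SE (8.42 to 8.69, 8.32 to 8.69). Probes for near copies and pseudogenes can bind mRNA of the parent gene, so these values may not belong to the named gene alone. RPL10 and RPLP0, 2 of the 69 members, were read by sets whose identifier marks probes shared between genes, and are uncertain for the same reason.

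More than 1 probe set read 19 of the 69 genes. Of the 29 other sets 18 were higher and 10 lower (median 0.05), and 2 had an unadjusted p under 0.05, beside 8.89% of all probe sets. One of them, for RPL19, read 6.02, 6.19, 6.30, 5.88 and 6.27 in control pools and 6.46, 6.36, 6.48, 6.35 and 6.36 in CLA pools, which did not overlap, as in 1.97% of all probe sets. It differed by 0.27 ± 0.0873 SE (limma adjusted p = 0.418), while the strong RPL19 set differed by -0.04. The other, for RPS4Y1, read 4.87 to 5.20 in control and 5.16 to 5.77 in CLA pools and differed by 0.36 ± 0.115 SE (limma adjusted p = 0.418), beside -0.14 and -0.01 at the remaining sets. In 9 of 19 genes the sets differed in sign. RPS4Y1, RPS12, RPL19, RPL9 and RPS3 had the widest spans, with RPS12 between -0.17 and 0.20, RPL9 between 0.01 and 0.21, and RPS3 between -0.10 and 0.10.

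**Figure D3:**
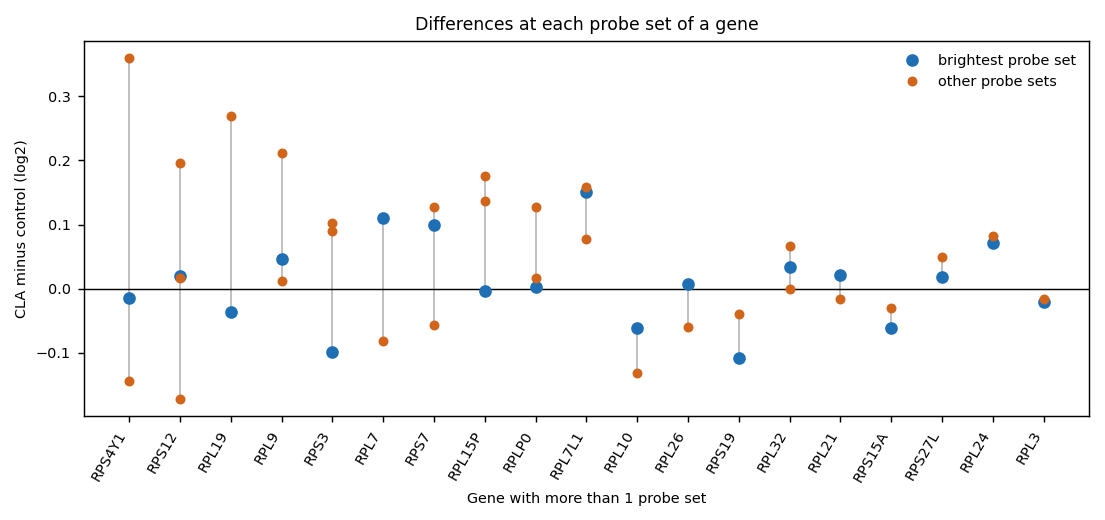
Difference between CLA and control pools on the log2 scale for every probe set of the 19 genes with more than 1 set, ordered by span. The widest span is that of RPS4Y1, from -0.14 to 0.36, while both sets of RPL3 lie at -0.02.

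The pools of a group differed from each other, and most core genes moved together among them. Set against each gene's mean over 10 pools, the core median was 0.14 in CLA pool 2, and between -0.07 and -0.01 in the other CLA pools. In control pools 1 to 5 it stood at -0.07, 0.03, -0.03, 0.00 and 0.045. Of the 62 core genes 42 had their highest value in CLA pool 2. Their lowest values fell in CLA pool 5 for 20 genes and in control pool 1 for 17. Both subunits took part, with medians of 0.141 (60S) and 0.144 (40S) in CLA pool 2 and of -0.066 and -0.067 in CLA pool 5. The median over all genes was 0.05 in CLA pool 2.

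**Figure D4:**
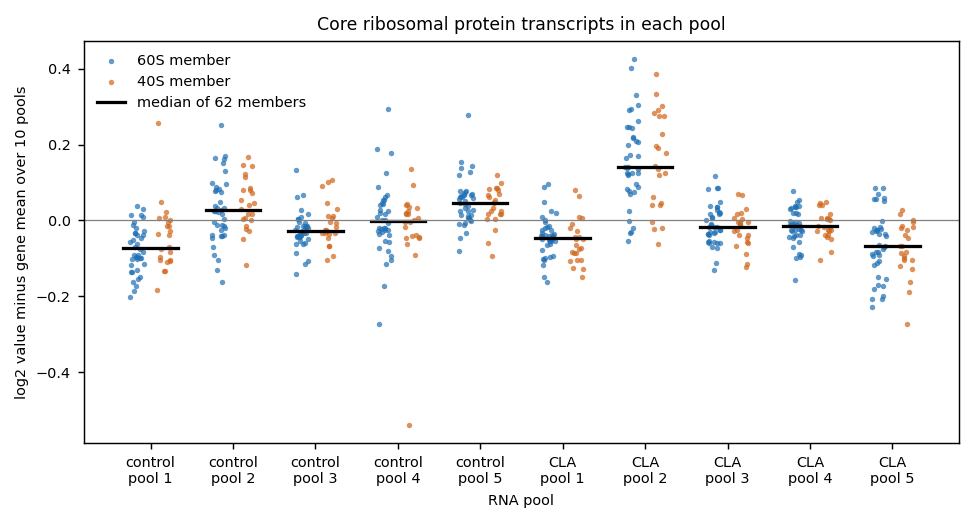
Deviation of 62 core ribosomal protein transcripts from each gene's mean over 10 pools (log2), per pool; points are genes, bars the median over the 62. CLA pool 2 has the highest bar, 0.14, and the bars of the other 9 pools lie between -0.072 and 0.045; the lowest point is RPS21 in control pool 4.

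With group means removed, the mean correlation over the 1891 pairs of core genes was 0.476 across the 10 pools, and 84.9% of pairs were above 0. Over all genes it was 0.027, and over the 116 other genes of strong signal 0.022. The correlation within the core was 0.302 without CLA pool 2, lay between 0.451 and 0.526 without any other single pool, and was 0.357 after quantile, 0.441 after cyclic loess and 0.534 after array median scaling. These points share arrays and their scaling, so the values are descriptive. Of the 62 core genes 33 correlated above 0.8 with the median of the others, led by RPL29 (0.971) and RPS7 (0.961).

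A smaller set did not follow. RPL7, RPS3A, RPL22, RPL17, RPS24, RPS28 and RPS21 correlated with the rest of the core at -0.02 to 0.12, and the weak RPS19 set at -0.32. RPS3A, RPL22, RPL7 and RPL17 were below their own means in CLA pool 2, by -0.06, -0.06, -0.03 and -0.02, where RPL24 was above by 0.43, RPLP0 by 0.40 and RPSA by 0.39. These genes were chosen after their values were seen. RPS21 owed its spread to control pool 4, at 11.74 against 12.26 to 12.40 in the other 9 pools. RPL13A had the smallest range of all members, 13.50 to 13.63 over the 10 pools.

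Without CLA pool 2, 48 of the 62 core genes were lower and 14 higher (median -0.04), beside 5358 lower and 3787 higher of all genes (median -0.03). RPL28, RPS3, RPS15A and RPL23 then lay below every control pool, 4 of the 69 members beside 3.74% of all genes. CLA pool 2 was also the highest pool for other lists described below, with medians of 0.219 over initiation, elongation and release factors, 0.165 over rRNA transcription, 0.118 over ribosome assembly and 0.102 over mTOR signalling. Over further genes with pyrimidine-start mRNAs or ribosome-bound proteins its median was 0.034, and control pool 5 was highest (0.056). In CLA pool 2 the hepatocyte marker median was -0.08 and that of T and NK lymphocyte markers -0.04, against ranges over the other pools of -0.08 to 0.08 and -0.26 to 0.26. Their part in the ribosomal values, and that of the wider array, was not tested.

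Genes outside the ribosome whose profile over the 10 pools, with group means removed, was most like the core median were RTRAF (Pearson's r 0.974), BBLN (0.968), AGTPBP1 (0.953), GABARAP (0.947) and OLA1 (0.946). Their own differences between groups ran from -0.05 to 0.11.

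Other genes of the translation pathway were taken from fixed lists. Of 17 genes that encode further proteins with pyrimidine-start mRNAs or ribosome-bound proteins 6 were higher and 11 lower (median -0.04). An unadjusted p under 0.05 was found for 0, beside 8.49% of all genes. EIF3L, an initiation factor subunit, had the smallest p among the higher (0.09 ± 0.0946 SE) and NACA, of the complex that binds new peptides, among the lower (-0.09 ± 0.0796 SE). EEF1A1 and EEF2 carry out elongation. The strongest EEF1A1 set and the EEF2 set had their lowest value in CLA pool 2, 13.85 and 12.75, while the other EEF1A1 set had its highest there, 12.37 against 12.04 to 12.31 in the other pools.

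Of 27 initiation, elongation and release factors 18 were higher (median 0.04). An unadjusted p under 0.05 was found for 1, which is 3.7% beside 8.49% of all genes. EIF2S3, a subunit of the factor that delivers the initiator tRNA, read 9.69, 9.78, 9.76, 9.22 and 10.01 in control and 10.04, 10.25, 10.11, 10.08 and 10.07 in CLA pools. The groups did not overlap, as in 2.17% of all genes. It was 0.42 ± 0.122 SE above control (limma adjusted p = 0.398), and its other probe set 0.28. EIF2B4 had the smallest p of the lower genes (-0.11 ± 0.0801 SE). Without CLA pool 2, 14 of the 27 were higher (median 0.01).

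Of 53 genes of ribosome assembly 29 were higher and 24 lower (median 0.026), and 6 higher and 2 lower had an unadjusted p under 0.05, which is 15.1% beside 8.49% of all genes (4.35% higher and 4.14% lower). Higher were SBDS, UTP18, RIOK2, NOL11, UTP15 and MPHOSPH10, and lower were DKC1 and TSR1. SBDS, which helps release a factor that keeps the new large subunit from joining, read 8.07, 8.29, 8.16, 8.11 and 8.35 in control and 8.59, 8.79, 8.64, 8.66 and 8.34 in CLA pools. CLA pool 5 alone fell within the control range, and the difference was 0.41 ± 0.0917 SE (limma adjusted p = 0.299). Its other probe sets differed by 0.04 and -0.10. DKC1, the pseudouridine synthase of rRNA, read 9.04 to 9.17 in control and 8.81 to 9.03 in CLA pools (-0.17 ± 0.0664 SE). Its groups did not overlap, as in 2.17% of all genes. Without CLA pool 2 the count over the list was 1 higher and 0 lower (1.89%, beside 8.9% of all genes), and the list median was -0.01. Without any other single pool the share was at least 9.43%, beside 6.42% to 9.44% of all genes, and without control pool 2 it was 9.43% beside 9.44%.

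Of 14 genes of rRNA transcription 7 were higher and 7 lower. TAF1D alone had an unadjusted p under 0.05 (0.33 ± 0.117 SE), which is 7.14% beside 8.49% of all genes. TTF1 had the smallest p of the lower (-0.10 ± 0.0778 SE). In mTOR signalling 12 of 24 were higher (median 0.003) and 0 had an unadjusted p under 0.05, beside 8.49% of all genes. RRAGA, a GTPase that brings mTOR to the lysosome, differed by 0.12 ± 0.0678 SE, and RPS6KB2, a kinase of RPS6, by -0.16 ± 0.101 SE.

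Markers of other cells in the biopsies are given for the same pools. Differences had a median of 0.042 over 11 hepatocyte markers, -0.07 over 6 erythroid, -0.18 over 12 T and NK lymphocyte, -0.042 over 5 B lymphocyte and plasma cell, -0.05 over 9 macrophage, 0.086 over 9 stellate cell, -0.05 over 9 endothelial and 0.086 over 5 bile duct markers. The mean deviation of the 12 T and NK markers from their control mean ranged from -0.334 to -0.073 in CLA and from -0.166 to 0.196 in control pools.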

How the data were processed

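Liver RNA pools were measured on the Affymetrix GeneChip Bovine Genome Array. The deposited table holds log2 values, which the authors made with RMA and Affymetrix Expression Console 1.1, per the submitters' processing notes; the settings and genome build are not given in the sources used here. Those deposited log2 values, written to 2 decimals, were used without further scaling. Of 24128 probe sets the manufacturer's control sets were left out and 24016 tested, of which 13292 had 1 symbol, 86 several and 10638 none; 0 of the sets with several named a ribosomal protein. All 69 member identifiers were found in RefSeq's ARS-UCD2.0 gene table and 0 symbols differed. No sequences or coordinates are given.

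Differences were fitted over all probe sets with lmFit and eBayes of limma 3.58.1 (R 4.3.3) on 10 arrays without covariates. P-values are two-sided, with Benjamini-Hochberg adjustment over the 24016 sets; intervals are 95%. Tested on simulated data, the fit gave an unadjusted p under 0.05 to 72% of sets changed 1.2-fold and 96% of those changed 1.5-fold (50 sets each), and an adjusted p under 0.05 to 6% and 54%. Simulated sets varied independently, and the changed ones were drawn from all probe sets. Of unchanged simulated sets 5.265% had an unadjusted p under 0.05, against 8.89% of real sets. The core genes moved together among the real pools, so these shares are not the power for the members. Groups came from the sample titles. Same-numbered pools deviated together with correlations of -0.086 to 0.092 over probe sets, so the numbers were not taken as pairs. Values by pool are given for the 6 members of largest difference each way, genes fixed by role, paralogues and other matches of the rule; members past a threshold in an alternative only are named as such. Members, role groups and lists were chosen with earlier results of these data known. The array gives no counts, so the number of arrays limits precision.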

Additional observations from a re-analysis of the deposited data

Results flagged for a closer look

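In groups of 5 pools, a value was singled out when its gap to the nearest pool exceeded 0.71 of the group's range, which chance does in about 1 of 20 groups; 46 groups were examined. CLA pool 2 was the high pool for RPL28 (12.72, the other CLA pools 12.29 to 12.38), RPLP0 (12.56, others 11.95 to 12.10) and RPS15A (13.01, others 12.91 to 12.93). The median deviation of the 69 members was also highest there (0.144, others -0.067 to -0.012). Control pool 5 was the high pool for RPL35A (12.82, others 12.50 to 12.57), and CLA pool 5 the low pool for RPL36A (11.52, others 11.62 to 11.66).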

How the results depend on the processing

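No alternative gave any member an adjusted p under 0.05, the fit with the pool number as a replicate block included, which gave 0 members an unadjusted p under 0.05 and a median of 0.008; same-numbered pools did not deviate together, and 0 of 5 correlated best with its own number. Members at an unadjusted p under 0.05 numbered 0 as reported, 1 after subtraction of array medians (1 higher, RPL7L1; 8.85% of all genes), 1 after cyclic loess normalization (1 lower, RPS3; 8.23%), 3 by the unmoderated test (2 higher, 1 lower; 9.23%) and 1 (lower, RPL28; 8.07%) without CLA pool 2 and control pool 4, an alternative chosen after seeing the data; in that fit 4 members did not overlap, beside 5.02% of all genes. With each pool left out in turn, 0 to 1 members had an unadjusted p under 0.05 (0 to 1 higher, 0 to 1 lower). The share of all genes was 6.42% to 9.44%. Members without overlap numbered 0 to 4, the 4 without CLA pool 2, where 3.74% of all genes did not overlap. In the same fits 50 to 55 members lay within 1.2-fold, beside 29.6% to 37.1% of all genes. Within 1.5-fold lay 68 to 69 members, beside 92.8% to 94.5% of all genes. The median of members ran from -0.0345 to 0.027, and its distance from the median of all genes from -0.009 to 0.032. Of 22 named members 13 kept their sign in every fit. Beyond the signs given with RPL11, RPL5 and RPS27L, and leaving out single pools, signs turned for RPL11 (-0.0083), RPLP0 (-0.0391), RPSA (-0.0329) and RPS27L (-0.0197) after cyclic loess; RPLP0 (-0.0042) and RPS27L (-0.0356) after quantile normalization; RPL15P (0.027), RPL5 (0.007), RPS4Y1 (0.017) and RPS6 (0.003) after subtraction of array medians; RPL5 (0.0027), RPLP0 (-0.0422), RPS4Y1 (0.0196) and RPSA (-0.0293) with array weights; RPL15P (0.1027), RPS3 (0.0313) and RPS4Y1 (0.0673) with the mean of a gene's sets; and RPLP0 (-0.1125), RPS4Y1 (0.0125) and RPSA (-0.085) without CLA pool 2 and control pool 4. Single pools turned RPL15P (-0.0745 to 0.038), RPLP0 (-0.0985 to 0.0655), RPS27L (-0.0405 to 0.0735), RPS4Y1 (-0.048 to 0.027) and RPSA (-0.0875 to 0.0775). The cause was not tested. RPL37 had no value without the dimmest 30% of probe sets. All members lack detection calls, so signal over background is unknown.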
